A study of Mus musculus with 9 samples.

Results

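Genes of the DNA damage response and of DNA repair were followed through chromatin maps of mouse bone marrow stem and progenitor cells with and without Dek. They are a list of 47 among 21883 protein-coding genes, chosen by name and not by their peaks. The choice was made with earlier results of these data known. The genes fall into 7 groups by pathway. There are 8 genes of checkpoint and damage signalling, 13 of homologous recombination, 8 of the Fanconi pathway, 5 of end joining, 3 of mismatch repair, 7 of base excision and single-strand break repair, and 3 of nucleotide excision repair. A gene was counted as having a mark when a deposited peak lay within 1 kb of either end of its RefSeq span in mm10. Where several peaks did, the one with the highest −log10 q stands for the gene.

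The 9 libraries were made by CUT&Tag, in which an antibody tethers a transposase so that DNA next to the bound protein or modified histone is cut and sequenced. The tested animals were Dek fl/fl,Tie2-Cre mice (cKO), and the controls were Dek fl/fl mice (fl), which carry the floxed alleles without Cre. All were C57BL/6, aged 12 weeks. Tie2-Cre is active in endothelial and haematopoietic cells, so the deletion is not limited to stem cells. H3K27ac and H3K4me3 were profiled in LSK cells (Lin-Sca-1+c-Kit+, about 50000 cells) of cKO and fl mice. H3K9ac was profiled in haematopoietic stem cells (HSC, gated further as CD48-CD150+, about 20000 cells) of both genotypes, and DEK itself in 3 libraries of fl HSC. With a single library of each histone mark in cKO and in fl, none of the differences below could be tested or checked against replicates. The labels do not say how many animals went into a library.

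Damage signalling starts from kinases that sense broken or stalled DNA and from ubiquitin ligases that mark the chromatin around a break. Double-strand breaks are then repaired either by homologous recombination on the sister chromatid or by direct end joining, crosslinks are removed through the Fanconi proteins, and damaged or mispaired bases by excision. Blood stem cells are known to depend on these pathways, and inherited Fanconi defects lead to bone marrow failure. H3K4me3 marks the promoters of genes that are active or poised. H3K27ac and H3K9ac mark active promoters, and H3K27ac also marks enhancers. DEK is a chromatin protein that binds DNA and histones.

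Promoters of 6 of the genes are printed here because the results below turn on them, as 250 bases before to 50 bases after the start site from RefSeq (GRCm38.p6, mm10). Atr (chr9:95857347-95857646, plus strand) and Xpa (chr4:46196262-46196561, minus strand) had the strongest H3K27ac peaks among the genes listed in cKO alone. Fancm (chr12:65075353-65075652, plus strand) had such a peak at its own start site. Chek2 (chr5:110839733-110840032, plus strand) was the only gene with an H3K9ac peak at an end. Brca1 (chr11:101551906-101552205, minus strand) had H3K4me3 without H3K27ac, and Fancl (chr11:26386834-26387133, plus strand) had H3K27ac without H3K4me3. Capitals mark matches, on either strand, to any of 7 short motifs that are named with the promoter results at the end.
Atr: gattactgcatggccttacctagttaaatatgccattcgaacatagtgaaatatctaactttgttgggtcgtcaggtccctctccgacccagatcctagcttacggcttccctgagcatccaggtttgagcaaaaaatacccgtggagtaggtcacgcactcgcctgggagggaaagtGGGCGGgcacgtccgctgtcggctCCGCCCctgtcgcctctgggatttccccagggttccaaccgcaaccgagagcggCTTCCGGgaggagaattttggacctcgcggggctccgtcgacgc
Xpa: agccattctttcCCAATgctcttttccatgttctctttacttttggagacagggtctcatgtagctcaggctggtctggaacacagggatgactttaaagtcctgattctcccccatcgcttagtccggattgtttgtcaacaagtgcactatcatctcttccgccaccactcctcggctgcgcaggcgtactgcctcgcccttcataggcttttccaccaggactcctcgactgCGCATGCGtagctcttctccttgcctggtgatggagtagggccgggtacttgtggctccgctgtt
Fancm: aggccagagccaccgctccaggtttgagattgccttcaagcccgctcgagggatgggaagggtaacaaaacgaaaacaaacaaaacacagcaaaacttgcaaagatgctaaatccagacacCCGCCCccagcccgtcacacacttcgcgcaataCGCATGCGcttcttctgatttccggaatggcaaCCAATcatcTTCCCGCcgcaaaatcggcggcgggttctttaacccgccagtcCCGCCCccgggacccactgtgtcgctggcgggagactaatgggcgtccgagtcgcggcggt
Chek2: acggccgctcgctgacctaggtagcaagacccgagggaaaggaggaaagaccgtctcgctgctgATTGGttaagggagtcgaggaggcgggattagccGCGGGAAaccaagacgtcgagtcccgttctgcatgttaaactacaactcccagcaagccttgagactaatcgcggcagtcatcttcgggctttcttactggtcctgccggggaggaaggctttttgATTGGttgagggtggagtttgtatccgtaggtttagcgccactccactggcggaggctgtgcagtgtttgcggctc
Brca1: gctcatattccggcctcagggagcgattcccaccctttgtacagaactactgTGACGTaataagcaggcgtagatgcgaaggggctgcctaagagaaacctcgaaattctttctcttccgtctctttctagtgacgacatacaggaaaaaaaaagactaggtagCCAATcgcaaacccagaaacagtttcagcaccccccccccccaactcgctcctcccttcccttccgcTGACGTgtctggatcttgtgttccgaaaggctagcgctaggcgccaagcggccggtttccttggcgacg
Fancl: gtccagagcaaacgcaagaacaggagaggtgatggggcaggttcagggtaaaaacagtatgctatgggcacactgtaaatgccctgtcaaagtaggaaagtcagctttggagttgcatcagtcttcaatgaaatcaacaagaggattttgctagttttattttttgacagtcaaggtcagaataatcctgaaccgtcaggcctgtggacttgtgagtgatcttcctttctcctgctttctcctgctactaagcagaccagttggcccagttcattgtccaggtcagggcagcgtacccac
The Fancl window is the one without a capital letter, and its CpG ratio (observed over expected) was 0.182, the lowest of the 40 promoters that had an entry. The ratios of the other 5 printed promoters lay between 0.573 at Xpa and 1.05 at Fancm.

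The lists that were compared differ in length. H3K27ac had 16331 peaks in cKO and 10494 in fl, H3K4me3 had 10159 in cKO and 10514 in fl, and H3K9ac had 3431 in cKO and 2172 in fl. The DEK libraries gave 2054, 2111 and 6147 peaks in replicates 1, 2 and 3. The peak names of replicates 1 and 2 contain DeK and those of replicate 3 contain Flag, so replicate 3 may not have been made with the same antibody, and results that rest on it are marked as such. Read depth is not known from peak lists, so a gene without a peak is one that is not listed, not one shown to lack the mark. H3K4me3 was listed at 11 of 14 stem and progenitor marker genes in cKO and at 10 of 14 in fl. Kit, Cd34, Gata2 and Runx1 were among those listed in both. Ly6a (Sca-1, in the LSK gate) and Slamf1 (CD150, in the HSC gate only) were listed in neither. None of 4 T cell, 4 B cell and 5 endothelial markers had H3K4me3 in either list. Of 6 granulocyte and monocyte markers 1 was listed in each (S100a8 in cKO, Mpo in fl), Klf1 was the only one of 6 erythroid and megakaryocyte markers in each list, and of 4 stromal markers none was listed in cKO and Pdgfrb was listed in fl. The part of these cells in the results was not tested. In sorted populations a change in which cells are present and a change in mark per cell cannot be told apart.

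H3K4me3 was listed at nearly all of the repair genes, with and without Dek. It was present at 42 of the 47 genes in cKO and at 41 in fl, against 42.7% of all protein-coding genes in cKO and 43.8% in fl. The mark was found in both lists at 41 genes (41.1% of all genes). The one gene listed in cKO alone was Xrcc5, a subunit of the Ku heterodimer that binds broken ends (1.59% of all genes), and no gene was listed in fl alone (2.75% of all genes). The Xrcc5 peak was 385 bp wide with a −log10 q of 6.38, and ranked near the weak end of its list, at 91.4% of the list length (0% is the strongest peak). The remaining 5 genes, Trp53bp1, Mdc1, Fancc, Fancl and Xrcc6, had no H3K4me3 peak at a gene end in either list (54.6% of all genes).

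Of those 5 genes, Trp53bp1, Fancc and Xrcc6 had both marks in both genotypes at start sites that lie more than 1 kb inside their annotated spans. At the Trp53bp1 start site H3K4me3 had a −log10 q of 16.6 in cKO and 21.6 in fl, and H3K27ac 33.7 in cKO and 11.0 in fl. Trp53bp1 is the 53BP1 protein that steers break ends towards end joining. At Fancc, a subunit of the Fanconi core complex, H3K4me3 had a −log10 q of 9.35 in cKO and 15.6 in fl. At Xrcc6, the other Ku subunit, it was 23.0 in cKO and 36.8 in fl. Counted by start site, for the 40 genes that have one in the RefSeq promoter table, H3K4me3 was listed at 37 in cKO and 36 in fl. Over all 17491 protein-coding genes with a start site entry, the share was 45.9% in cKO and 47% in fl. Of the 40 repair genes, Mdc1, Fancl and Fancm had no H3K4me3 at the start site in either list. The 7 repair genes without an entry are Wrn, Xrcc2, Xpc, Fancd2, Rad50, Nbn and Prkdc.

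H3K27ac separated the genes much more than H3K4me3 did. It was listed at 35 genes in cKO and at 23 in fl, against 42.4% of all genes in cKO and 21.9% in fl. All 23 genes of the fl list were also in the cKO list (both lists: 21.5% of all genes). A further 12 genes were listed in cKO alone (20.9% of all genes), none in fl alone (0.384% of all genes), and 12 in neither (57.2% of all genes). The genes in cKO alone were Atm, Atr, Chek1, Bard1, Palb2, Nbn, Fancd2, Fance, Fanci, Fancl, Lig4 and Xpa. As a share, the 12 of 47 genes in cKO alone make 25.5%, near the share over all genes. By pathway they were 4 of 8 Fanconi genes, 3 of 8 checkpoint and damage signalling genes, 3 of 13 homologous recombination genes, 1 of 5 end joining genes and 1 of 3 nucleotide excision repair genes. None of the 3 mismatch repair or 7 base excision genes was among them.

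**Figure D1:**
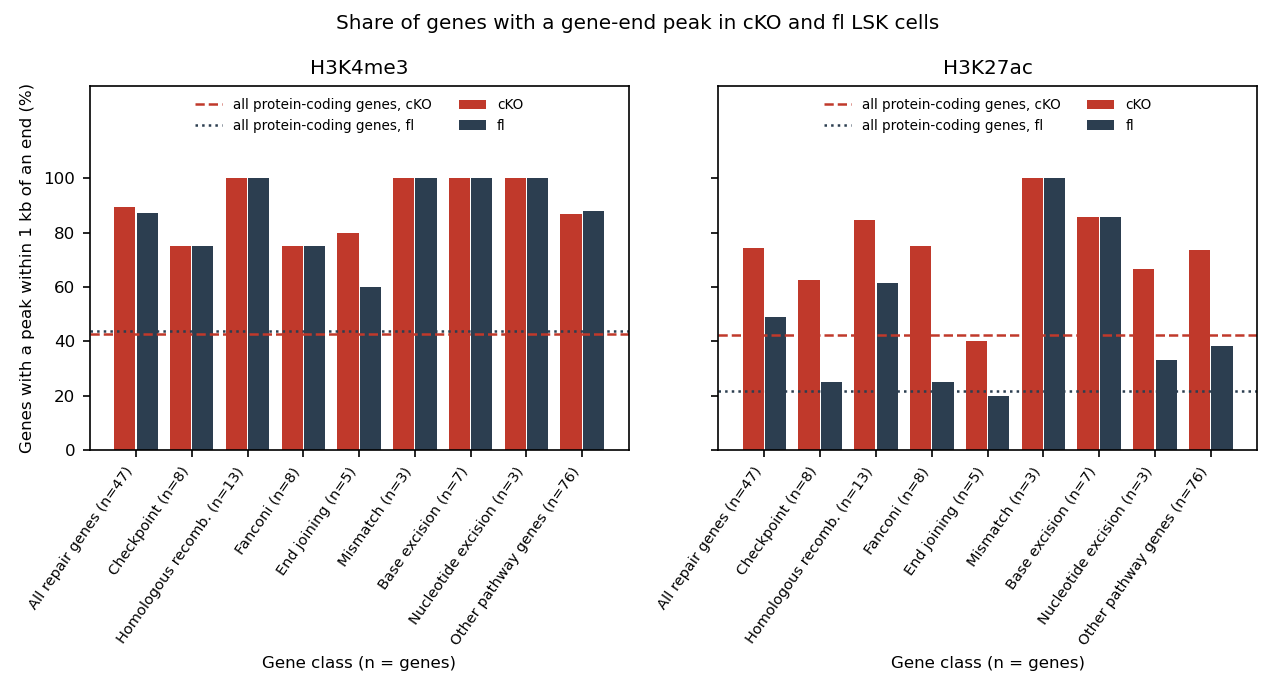
Share of genes with a peak within 1 kb of a gene end (y axis, percent of the genes in the group) for H3K4me3 and H3K27ac, in cKO (red) and fl (dark blue) LSK cells; lines give the shares over all 21883 protein-coding genes. H3K4me3 bars of the 2 genotypes are level in every pathway but end joining, where cKO has 4 of 5 genes and fl 3 of 5; H3K27ac bars are higher in cKO in every pathway but mismatch repair and base excision repair, where they are level.

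Most of the genes carry H3K4me3, so the fitting background for their acetylation is the set of genes with that mark. Of the 41 genes with H3K4me3 in both lists, H3K27ac was listed at 34 in cKO (82% of all 8990 genes so marked) and at 23 in fl (49.7% of those genes). It was in both lists at the same 23 (49.1% of those genes), in cKO alone at 11 (32.9%), in fl alone at none (0.545%) and in neither list at 7 (17.5%). As shares of the 41, the genes listed in cKO make 82.9%, those in fl 56.1%, those in cKO alone 26.8% and those in neither 17.1%. Against genes that share the promoter mark, these shares lie near the background.

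The cKO H3K27ac list is the longer one, which bears on every count of genes in cKO alone. When the cKO list was shortened to the strongest 10494 peaks, the length of the fl list, 28 of the 47 genes had a peak in cKO (31% of all genes) and 23 in fl. Then 6 genes were in cKO alone (11% of all genes), namely Atm, Atr, Bard1, Nbn, Fance and Xpa. Rad50 was in fl alone (1.92% of all genes), 22 genes were in both (20% of all genes) and 18 in neither (67.1% of all genes). The other 6 of the 12 genes had gene-end cKO peaks ranked below that length. Lig4, one of them, also had a stronger cKO peak at its inner start site, at 25.3% of the full list. That peak lay more than 1 kb from a gene end and was not counted. The H3K4me3 lists, shortened likewise to 10159 peaks, gave the same counts, with Xrcc5 in cKO alone (1.78% of all genes) and no gene in fl alone (2.37% of all genes).

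The 12 H3K27ac peaks listed in cKO alone had fold enrichments of 6.60 to 14.9 over the local background, as the authors' peak caller gives them, and widths of 303 to 633 bp. Xpa, which helps assemble the incision complex of nucleotide excision repair, had the strongest of them (chr4:46195823-46196412), with a −log10 q of 34.5 at 16.4% of the list. Atr, the kinase that answers single-stranded DNA at stalled forks, came next (chr9:95857530-95858162), with a −log10 q of 32.3 at 19.5% of the list. Fance, a core complex subunit, followed at 36.0%. The weakest was at Fanci (chr7:79392384-79392686), at 90.1% of the list. For the 23 genes in both lists the median rank in cKO was 25.1%, against 31.1% for all genes in both. For the 12 genes in cKO alone it was 58.6%, against 62.8% for all genes listed in cKO alone. From these cKO peaks the nearest fl H3K27ac peak was between 16194 bp away, at Bard1, and 425554 bp away, at Lig4. Atr did have an fl H3K27ac peak 1481 bp past its far end (chr9:95954698-95955050), just outside the limit, while the Rad52 peaks, 759 bp from an end in cKO and 895 bp in fl, were just inside it. Both marks met at the same place, since the H3K27ac peak overlapped the gene's H3K4me3 peak at 34 of 34 genes with both in cKO and at 23 of 23 in fl (over all genes, 96.4% in cKO and 96.7% in fl).

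**Figure D2:**
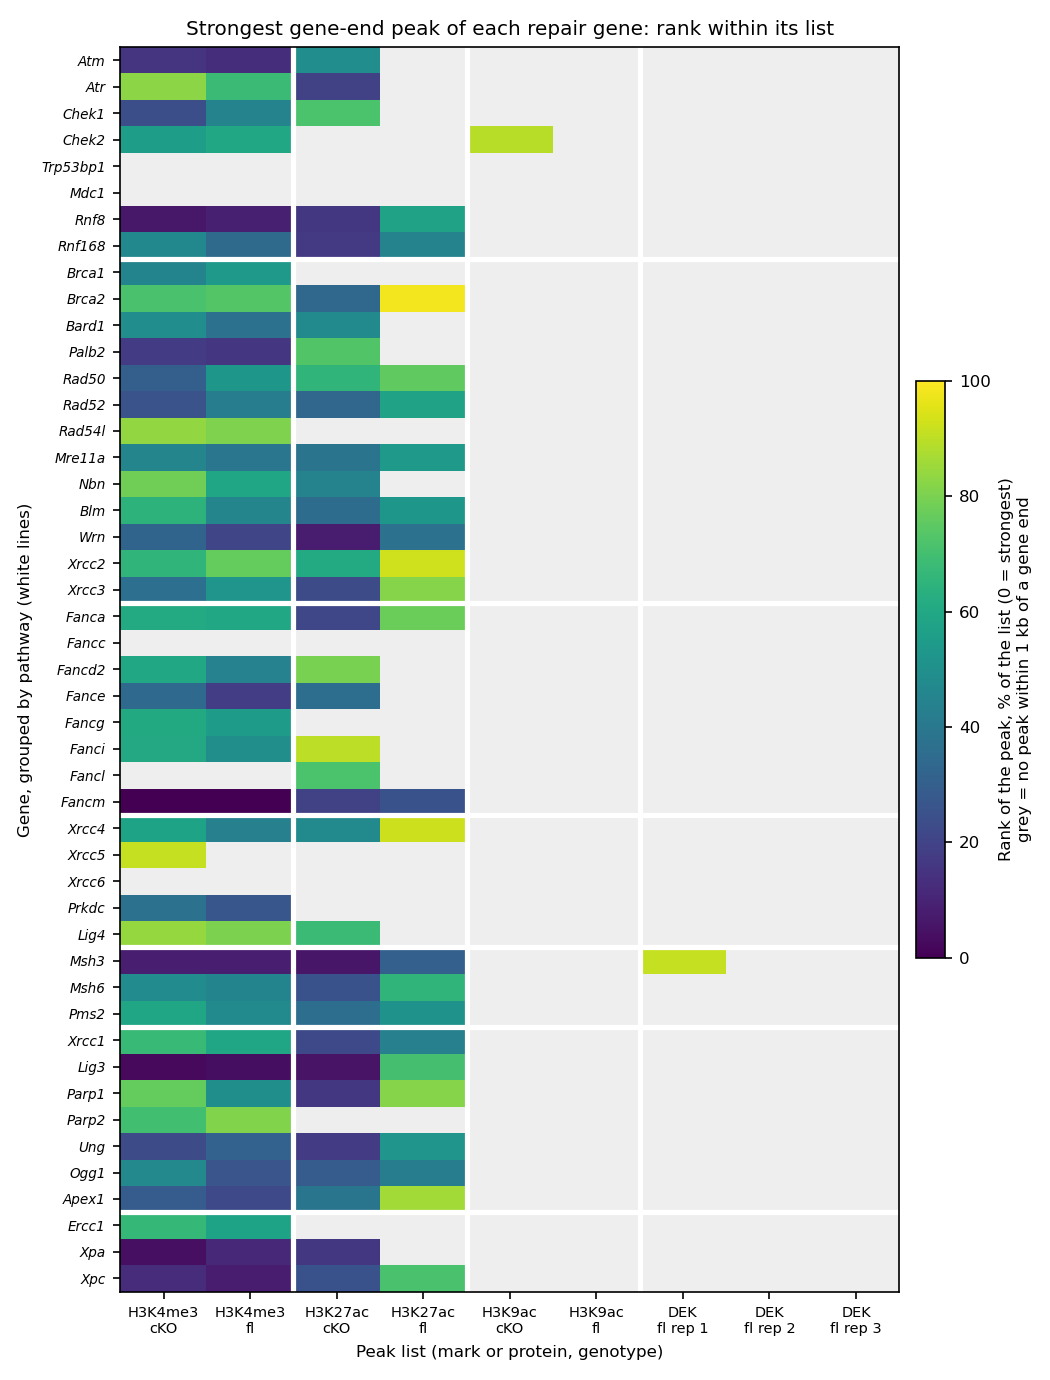
Rank of the strongest gene-end peak of each of the 47 genes (rows, by pathway) in each of the 9 peak lists (columns), as a percent of the list length, where 0 is the strongest peak and grey means no peak within 1 kb of an end. H3K4me3 fills most rows in cKO and fl, H3K27ac fills 35 rows in cKO and 23 in fl, and the H3K9ac and DEK columns hold 1 gene each (Chek2 and Msh3).

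In the cKO list the H3K27ac peaks of these genes stood higher than those of all genes with a peak. The gap was smaller within genes in both lists and within genes in cKO alone, as given above. The median rank of the repair genes was 33.9% of the cKO list (44.1% for all genes with a peak). Of these 35 genes, 13 lay in its strongest 25%, as did 22.3% of all genes with a peak. In fl the median was 57.7% of the list (65.1% for all genes), and none of the 23 lay in the strongest 25%, as did 2.19% of all genes with a peak. For H3K4me3 the median rank was 47.8% in cKO and 44.7% in fl, beside 43.3% in cKO and 42.9% in fl for all genes with a peak. Ranks come from lists of unequal length and describe each list on its own.

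Among the genes of checkpoint and damage signalling, 6 of 8 had H3K4me3 at an end in both genotypes. H3K27ac was listed at an end of 5 in cKO and 2 in fl. These counts leave out Trp53bp1, whose start site carried both marks in both lists. The 2 with gene-end H3K27ac in both lists were Rnf8 and Rnf168, ubiquitin ligases that act one after the other on chromatin around a break. Rnf8 had the group's strongest H3K4me3 peak, with a −log10 q of 53.5 in cKO and 61.4 in fl. That peak was 1237 bp wide, between the same coordinates, in cKO and in fl (chr17:29614537-29615773). Its H3K27ac peak was 779 bp wide in cKO and 409 bp in fl, with a −log10 q of 34.6 in cKO and 9.48 in fl. Rnf168 was the exception among the 23 repair genes with H3K27ac in both lists, since its peak was narrower in cKO, at 448 bp, than in fl, at 523 bp.

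The damage kinases Atm and Atr and the effector kinase Chek1 had H3K27ac in cKO alone. Atm, which responds to double-strand breaks, had an H3K27ac peak with a −log10 q of 18.7 in cKO, and an H3K4me3 peak of 911 bp in cKO and 1230 bp in fl. Atr had the reverse order of marks, a strong H3K27ac peak in cKO beside a weak H3K4me3 peak at 82.8% of the cKO list and 68.0% of the fl list. Chek1 had an H3K27ac peak with a −log10 q of 11.6 in cKO. Its H3K4me3 peak had a −log10 q of 33.5 in cKO and 26.9 in fl. Chek2, the effector kinase downstream of Atm, had a broad H3K4me3 peak of 1222 bp in cKO and 1336 bp in fl, with no H3K27ac in either. Mdc1, the adaptor that binds phosphorylated histone H2AX, had neither mark within 1 kb of an end. Its nearest H3K27ac peak lay 1481 bp from an end in cKO and 1646 bp in fl.

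All 13 genes of homologous recombination had H3K4me3 in both genotypes, and H3K27ac was listed at 11 in cKO and 8 in fl. Wrn, a RecQ helicase, had the widest H3K4me3 peak of all 47 genes, 1527 bp in cKO and 1585 bp in fl. It also had the group's strongest H3K27ac peak, with a −log10 q of 46.8 in cKO and 13.3 in fl. The peaks of both marks were also within 1 kb of an end of another protein-coding gene. Palb2, which links Brca1 to Brca2, had the strongest H3K4me3 peak here, with a −log10 q of 38.6 in cKO and 50.8 in fl, and H3K27ac in cKO alone at 11.3. Bard1, the partner of Brca1, likewise had H3K27ac at a gene end in cKO alone, with a −log10 q of 19.1. Inside Bard1 another H3K27ac peak was in both lists, with a −log10 q of 13.1 in cKO and 21.2 in fl.

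The subunits of the complex that first processes broken ends did not share 1 pattern. Mre11a, its nuclease, had H3K27ac in both lists, and its peak differed most in width of all members, at 814 bp in cKO against 305 bp in fl. Rad50 also had H3K27ac in both, with a −log10 q of 13.2 in cKO and 7.41 in fl. Nbn had it in cKO alone, with a −log10 q of 20.2. Brca2, a tumour suppressor of this pathway, had a weak H3K27ac peak in fl that was near the end of its list. Its −log10 q was 24.6 in cKO, at 33.9% of the list, and 4.18 in fl, at 98.1%. Rad52 had the widest fl H3K27ac peak of the group, 612 bp in cKO and 412 bp in fl.

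Brca1 and Rad54l had H3K4me3 but no H3K27ac in either genotype. The Brca1 H3K4me3 peak had a −log10 q of 22.2 in cKO and in fl, and a width of 1010 bp in cKO and 1386 bp in fl. Its summit lay 969 bp upstream of the Brca1 start site in cKO and 818 bp upstream in fl, on the side of Nbr1, whose start site is 152 bp from that of Brca1 on the other strand. The cKO peak (chr11:101552149-101553158) did not cover the Brca1 start site, and the fl peak (chr11:101551856-101553241) did.

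In the Fanconi group 6 of 8 genes had H3K4me3 at an end in both lists. H3K27ac was listed at an end of 6 in cKO and 2 in fl. These counts leave out Fancc, whose start site carried both marks in both lists. Fancd2 and Fanci, the pair that is ubiquitinated at a crosslink, both had H3K27ac in cKO alone, with a −log10 q of 9.55 and 7.40. Fanca, a core complex subunit, had it in both, with a −log10 q of 31.1 in cKO and 7.31 in fl. Fance had the group's widest gene-end H3K4me3 peak in fl, 911 bp in cKO and 996 bp in fl. Fanci had the widest at an end in cKO, 930 bp in cKO and 716 bp in fl. The peak at the Fancc start site was wider in cKO, at 1063 bp. Fancl, the ubiquitin ligase subunit, was the one gene of the 47 with H3K27ac but no H3K4me3 at an end, and its H3K27ac peak (chr11:26387224-26387570) was listed in cKO alone with a −log10 q of 11.6. Fancg, another core subunit, had H3K4me3 alone.

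Fancm, the translocase that brings the core complex to DNA, shows how far a gene-end count depends on the annotation. Its span in the gene table starts at chr12 position 65074110, and its RefSeq start site is farther in, at 65075603. The peaks counted for it lay at that outer end and were also within 1 kb of an end of Fkbp3. These included the strongest H3K4me3 peak of any of the 47 genes (chr12:65073431-65074144 in cKO), with a −log10 q of 111 in cKO and 135 in fl. The H3K27ac peak there had a −log10 q of 32.5 in cKO and 18.2 in fl. Within 1 kb of the Fancm start site itself neither list held H3K4me3. H3K27ac was found there in cKO alone (chr12:65075558-65075990), with a −log10 q of 20.0 and a summit 145 bp into the gene.

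Of the end joining genes, 2 of 5 had H3K27ac at a gene end in cKO and 1 of 5 in fl, which leaves out Xrcc6, whose start site carried it in both lists. H3K4me3 was listed at 4 of 5 in cKO and 3 of 5 in fl. Prkdc, the catalytic subunit of the DNA-dependent protein kinase, had the strongest and widest gene-end H3K4me3 peak of the group. The peak had a −log10 q of 25.4 in cKO and 39.0 in fl, with widths of 1124 bp in cKO and 1191 bp in fl. It was also within 1 kb of an end of another protein-coding gene. The peak at the Xrcc6 start site was wider, at 1296 bp in cKO and 1433 bp in fl. Prkdc had no H3K27ac at an end. Xrcc4 and Lig4 form the ligase complex that closes the break. Xrcc4 had H3K27ac in both lists, with a −log10 q of 19.1 in cKO and 5.59 in fl and widths of 533 bp in cKO and 301 bp in fl. Lig4 had it in cKO alone, at both of its start sites, with a −log10 q of 12.4 at the outer one and 28.7 at the inner one. The H3K4me3 peak of Lig4 was 349 bp wide in cKO and 640 bp in fl.

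The mismatch repair genes carried both marks in both genotypes. Msh3, a subunit of the complex that recognises larger loops, had the strongest peaks, with an H3K4me3 −log10 q of 49.8 in cKO and 62.4 in fl. Its H3K27ac −log10 q was 50.9 in cKO, at 6.09% of the list, and 15.6 in fl, at 30.7%. The Msh3 peaks of both marks were also within 1 kb of an end of another protein-coding gene. Msh6, a subunit of the complex that recognises single mispairs, had the widest peaks. Its H3K4me3 peak was 1168 bp wide in cKO and 1228 bp in fl, and its H3K27ac peak 1065 bp in cKO and 643 bp in fl. Pms2, a subunit of the endonuclease that acts after mispair recognition, had an H3K27ac −log10 q of 23.7 in cKO and 10.5 in fl.

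Base excision and single-strand break repair resembled mismatch repair, with H3K4me3 at all 7 genes and H3K27ac at 6 of 7 in cKO and in fl. Lig3, the ligase that works with Xrcc1, had the strongest H3K27ac peak of all 47 genes in cKO. Its −log10 q was 53.4 in cKO, at 5.28% of the list, and 8.02 in fl, at 70.5%. Its H3K4me3 peak had a −log10 q of 65.6 in cKO and 77.2 in fl. Ung, the uracil glycosylase, had the widest H3K27ac peak of all, 1088 bp in cKO and 982 bp in fl. That peak was also within 1 kb of an end of another protein-coding gene. Ogg1, the glycosylase for oxidised guanine, had the strongest fl H3K27ac peak of the group, with a −log10 q of 26.9 in cKO and 12.2 in fl. Apex1, the endonuclease that cuts at abasic sites, had the widest H3K4me3 peak, 1007 bp in cKO and 1078 bp in fl. Parp1 and Parp2 both bind nicked DNA, yet Parp1 had H3K27ac in both lists, with a −log10 q of 34.7 in cKO and 6.89 in fl, and Parp2 had it in neither.

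Each of the 3 nucleotide excision repair genes had H3K4me3 in both genotypes and a different H3K27ac state. Xpc, which recognises the lesion, had H3K27ac in both lists, 630 bp wide in cKO and 389 bp in fl, with a −log10 q of 28.7 in cKO and 8.02 in fl. Its H3K4me3 peak was the widest of the group, 959 bp in cKO and 1098 bp in fl, with a −log10 q of 44.2 in cKO and 64.1 in fl. Xpa had H3K27ac in cKO alone, and its H3K4me3 peak had a −log10 q of 60.5 in cKO and 57.0 in fl. Ercc1, a subunit of the nuclease that cuts on one side of the lesion, had H3K4me3 alone, 908 bp from an end in cKO and 927 bp in fl. Its nearest cKO H3K27ac peak lay 1553 bp from an end, just outside the limit of 1 kb.

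The width of the peaks went in opposite directions for the 2 marks, as it did over all genes. Of the 23 genes with H3K27ac in both lists, the cKO peak was wider at 22 (94.1% of all genes with it in both) and narrower at 1 (5.78% of those genes). The median difference, cKO minus fl, was 190 bp, against 167 bp over all genes. Of the 41 genes with H3K4me3 in both lists, the cKO peak was narrower at 30 (62.8% of all genes with it in both), wider at 10 (35.4% of those genes) and equal at Rnf8. The median difference was -67 bp, against -39 bp over all genes. It ran from -447 bp at Xrcc3, a homologous recombination gene, with 713 bp in cKO and 1160 bp in fl, to 214 bp at Fanci. At the repair genes with a peak, the median H3K27ac width was 533 bp in cKO and 377 bp in fl. Over all genes with a peak it was 547 bp in cKO and 386 bp in fl. The median H3K4me3 width at repair genes was 751.5 bp in cKO and 816 bp in fl. Over all genes it was 805 bp in cKO and 843 bp in fl. Called width moves with how much was read and called in a library, which was not tested here.

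**Figure D3:**
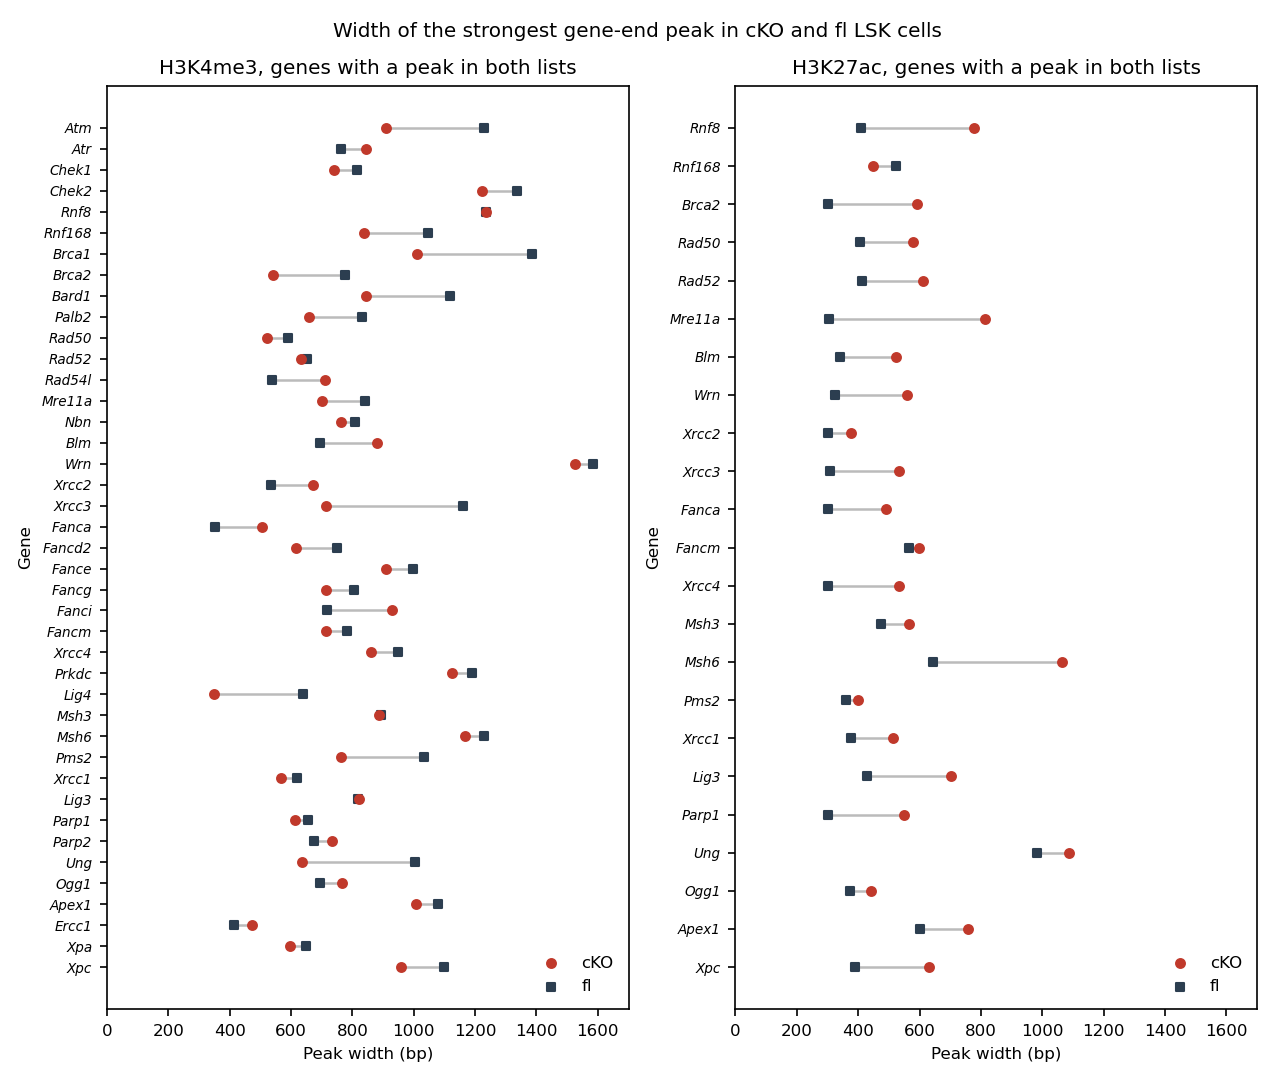
Width in bp (x axis) of the strongest gene-end peak in cKO (red circles) and fl (dark blue squares) LSK cells for the genes (rows) with the mark in both lists, with a grey line joining the 2 genotypes. The cKO circle lies right of the fl square at 22 of 23 genes for H3K27ac, Rnf168 being the other, and left of it at 30 of 41 genes for H3K4me3.

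Summits were measured for the strongest peak within 1 kb of a start site, so their closeness to it follows from that choice. Among genes with a start site entry, the H3K27ac summit lay at a median of 142.5 bp into the gene in cKO (32 genes) and 131 bp in fl (21 genes), against 95 bp in cKO and 82 bp in fl over all genes. The H3K4me3 summit lay at a median of 80 bp into the gene in cKO (37 genes) and 83 bp in fl (36 genes), against 170 bp in cKO and 171 bp in fl over all genes. It lay upstream of the start site at 12 of 37 genes in cKO and at 14 of 36 in fl (over all genes, 23.1% in cKO and 22.5% in fl). Brca1, Atm, Xrcc3, Lig4 and Pms2 were among these.

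**Figure D4:**
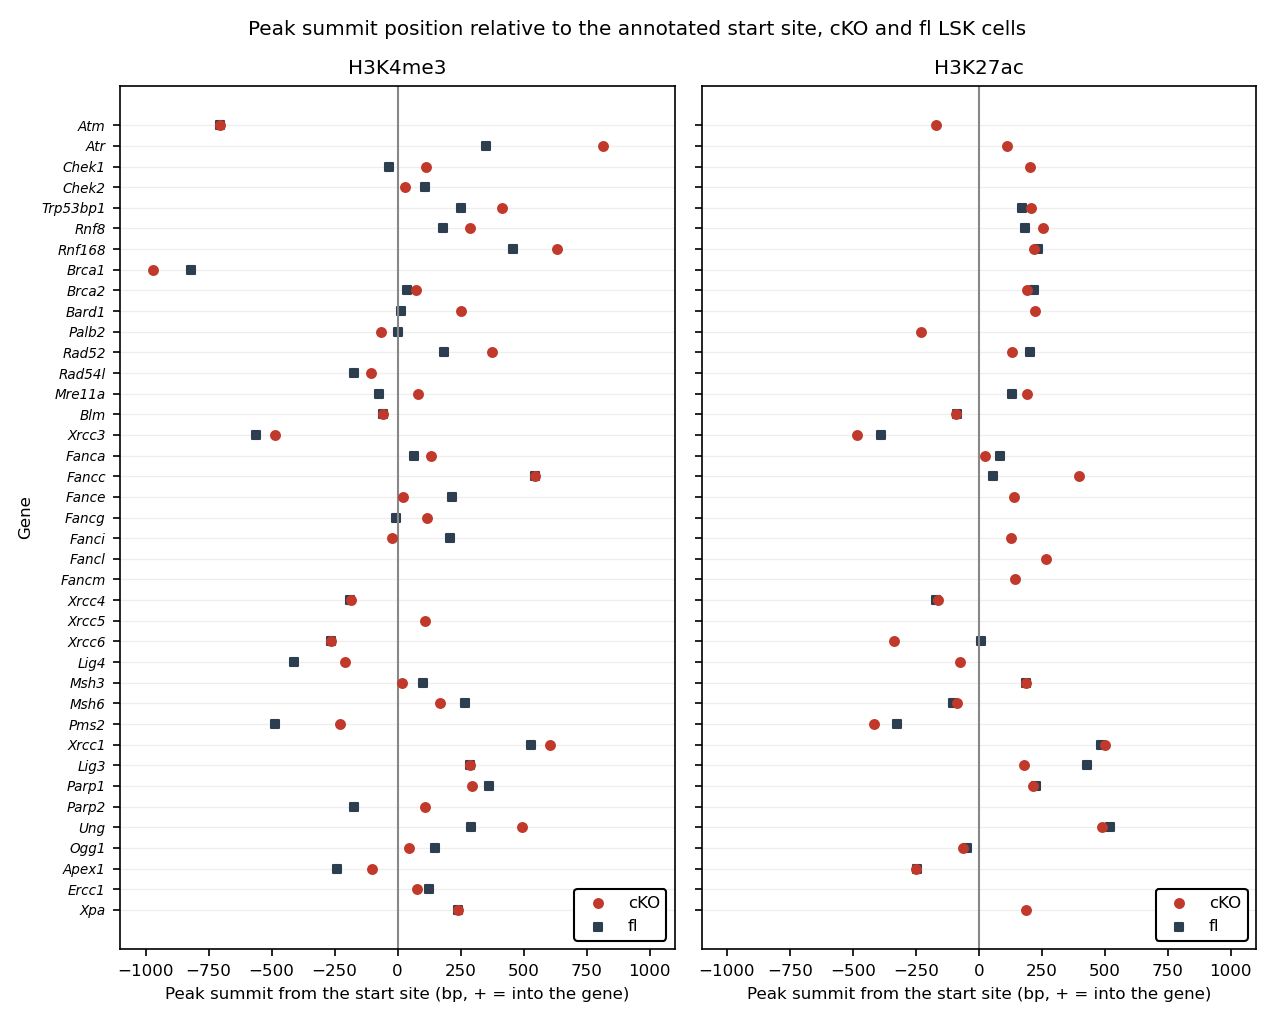
Distance in bp (x axis, positive into the gene) from the annotated start site to the summit of the strongest peak within 1 kb of it, for H3K4me3 and H3K27ac in cKO (red circles) and fl (dark blue squares) LSK cells; rows are the genes with a peak there. Most summits lie within 500 bp of the start, and the H3K4me3 summits of Brca1 lie farthest upstream, at -969 bp in cKO and -818 bp in fl.

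Many of these promoters are shared with a neighbour. A start site on the opposite strand, pointing away and within 1 kb, was found for 12 of the 40 genes with an entry (30%). The share over all genes with one was 8.48%. It is taken over genes with and without H3K4me3, and no share among genes with that mark is given here. The pairs were Atm with Npat, Palb2 with Dctn5, Mre11a with Ankrd49, Xrcc3 with Zfyve21, Xrcc4 with Tmem167, Xrcc6 with Desi1, Lig4 with Abhd13, Pms2 with Aimp2, Xrcc1 with Pinlyp, Apex1 with Osgep, Brca1 with Nbr1, and Atr with 1700065D16Rik. The start sites of Lig4 and Abhd13 lie 37 bp apart, the closest pair, and those of Xrcc1 and Pinlyp 694 bp apart, the widest. The counted H3K4me3 peak was also within 1 kb of an end of another protein-coding gene at 20 of 42 genes in cKO and at 20 of 41 in fl (of all genes with a peak, 30.0% in cKO and 29.9% in fl). The H3K27ac peak was so at 17 of 35 genes in cKO and at 11 of 23 in fl (of all genes with a peak, 27.5% in cKO and 33.2% in fl). Strong shared H3K4me3 peaks in cKO included those of Fancm with Fkbp3, Xpc with Lsm3, Atm with Npat and Palb2 with Dctn5. Signal at such a promoter cannot be assigned to 1 of the 2 genes.

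H3K9ac was listed at Chek2 in cKO and at none of the 47 genes in fl, where 1.06% of all genes had it in cKO and 0.658% in fl. Over all genes, 1.01% had it in cKO alone, 0.608% in fl alone, 0.0503% in both lists and 98.3% in neither, the last of which holds 46 of the repair genes. The Chek2 peak was 190 bp wide (chr5:110839690-110839879), with a −log10 q of 1.70 at 89.2% of its list. Its summit lay 198 bp upstream of the start site printed above. Anywhere in the span and 1 kb around it, H3K9ac was at 4 genes in cKO (7.26% of all genes) and 3 in fl (4.91% of all genes). These lists hold few promoter peaks for any gene, so the counts say little about repair genes.

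DEK was listed at an end of 1 gene, Msh3, in 1 of 3 libraries (1.21% of all genes had a DEK peak in any library). By library, 0.288% of all genes had one in replicate 1, 0.306% in replicate 2 and 0.69% in replicate 3. That peak came from replicate 1 (chr13:92354646-92354994), was 349 bp wide and had a −log10 q of 1.98, at 91.3% of its list. It lay within the H3K27ac and H3K4me3 peaks at the Msh3 start site in cKO and in fl. Those histone peaks were also within 1 kb of an end of another protein-coding gene. No repair gene had a DEK peak at an end in at least 2 libraries (0.064% of all genes).

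Counted anywhere in the gene span and 1 kb around it, DEK was at 6 of the 47 genes in any library (12.9% of all genes) and at 2, Fancc and Msh3, in at least 2 libraries (2.82% of all genes). Without replicate 3 it was at 3, Ogg1, Fancc and Msh3, in either library (6.51% of all genes) and at none in both (0.759% of all genes). These shares lie near the background, although the repair genes have longer spans, with a median of 34.3 kb against 17.2 kb over all genes. Fancc had an intragenic DEK peak in replicate 2 (chr13:63364260-63364639, −log10 q of 8.01) that overlapped one in replicate 3 (chr13:63364269-63364758, −log10 q of 7.66). Of the intragenic DEK sites of the 47 genes, this one was in more than 1 library, replicate 3 being one of them. Neither peak overlapped a histone peak.

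The next sites rest on replicate 3 alone for DEK. Prkdc had a site where 4 lists overlapped. There DEK replicate 3 (chr16:15671439-15671723, −log10 q of 6.70) met an H3K27ac peak with a −log10 q of 18.1 in cKO and 32.5 in fl, and an H3K9ac peak listed in cKO alone with a −log10 q of 3.19. In Fancl, DEK replicate 3 (−log10 q of 6.10) overlapped an H3K27ac peak of 987 bp in cKO and 862 bp in fl, far from the start site, with a −log10 q of 38.7 in cKO and 27.2 in fl. The strongest intragenic H3K27ac peak of all lay in Xrcc4 (chr13:90042934-90043749 in cKO), with a −log10 q of 62.4 in cKO and 35.0 in fl. It stood higher in its list than the Xrcc4 promoter peak in cKO and in fl.

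Other genes of these pathways were counted in the same way. Of 76 other damage response and repair genes, 64 had H3K4me3 in both lists (41.1% of all genes) and 2 in cKO alone (1.59%). It was in fl alone at 3 (2.75% of all genes) and in neither at 7 (54.6%). H3K27ac was in both lists at 29 (21.5% of all genes) and in cKO alone at 27 (20.9%). It was in neither at 20 (57.2% of all genes) and in fl alone at 0 (0.384%). Among the 64 with H3K4me3 in both lists, 45.3% had H3K27ac in both, against 49.1% of all genes so marked. In cKO alone it was at 32.8% of the 64, against 32.9%. Where the H3K27ac peak was in both lists it was wider in cKO at 27 of 29 (94.1% of all genes with it in both). None of the 76 had a DEK peak at an end (1.21% of all genes in any library). Lig1 was the only one with H3K9ac, in cKO (1.06% of all genes).

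Promoters of the repair genes were also described by sequence features that the choice of genes did not use. Their CpG ratio had a median of 0.866 over 40 promoters, against 0.576 over 17491. Among genes with H3K4me3 in both lists it was 0.895 over 34 promoters, against 0.809 over 7332. The largest ratio of shares was for the E2F box, GCGGGAA, bound by factors of the cell cycle, which was in 37.5% of the 40 promoters and in 6.84% of all. Among genes with H3K4me3 in both lists it was in 38.2% and 10.3%. Fancm and Chek2 carry it in the sequences printed above.

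For the other motifs the pairs of shares below are of the repair gene promoters and of the promoters they are set against, first over all promoters and then over those of genes with H3K4me3 in both lists. The SP family box, GGGCGG, was in 75% against 49.2%, and then in 79.4% against 72.4%. Atr holds 2 copies. The NF-Y box, CCAAT, was in 55% against 42.3%, and then in 52.9% against 42.7%. The ETS box, which reads CCGGAAG, was in 25% against 12.9%, and then in 29.4% against 23.3%, and Atr has 1. The NRF1 core, which reads GCATGCG, was in 17.5% against 4.95%, and then in 17.6% against 8.10%. Xpa and Fancm each hold it as a palindrome, which counts on both strands. The CREB core, TGACGT, was in 17.5% against 9.60%, and then in 14.7% against 14.3%, and Brca1 holds 2 copies. The cell cycle homology box, TTTGAA, was in 5% against 18.5%, and then in 5.88% against 13.2%. Motifs were searched on both strands and counted separately where they overlapped. Genes were also split by H3K27ac state at gene ends, which can differ from the state at the start site. The E2F box was in 7 of 19 promoters of genes in both lists, 4 of 10 in cKO alone and 4 of 11 in neither. Trp53bp1, Fancc and Xrcc6, counted in neither, had H3K27ac at their start sites in both lists. Fancm, counted in both, had it at its start site in cKO alone. A match describes letters in this window and is no evidence of a bound factor.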

How the data were processed

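The measurements are 9 deposited MACS-style peak lists (narrowPeak) from CUT&Tag of 1 library per genotype and histone mark and 3 DEK libraries. Reads were processed with Bowtie2, Picard and MACS2 on mm10, per the submitters' processing notes; their versions, the peak threshold and any control library are not stated in what was used here. Per peak the authors deposited a score (not used), a fold enrichment, and −log10 p and −log10 q values, all belonging to that peak within its own list. Peaks were called per sample, 1 list for each.

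From these, peaks were matched with Python 3.11.15, pandas 2.3.3 and numpy 2.4.6 to RefSeq gene ends within 1 kb. Ranks are by −log10 q. In the DEK lists, 11 rows that broke the order or the value pattern of their neighbours, and 16 rows on other sequences such as the mitochondrial genome, were left out. No row was irregular in the histone lists. The matching was tested on simulated peaks. Members and gene lists were chosen with earlier results of these data known. No test was made: counts stand beside those over 21883 genes. Named are genes with DEK or H3K9ac peaks, those in 1 genotype list alone, those without H3K4me3, the strongest and widest of each pathway, and the strongest shared peaks, of which 1 is not reported here; the few others named were chosen after their values were seen. Read depth is unknown, so no interval is given. Alternatives were other windows, start sites, a stricter q, equal list lengths, other ranks and left-out DEK libraries.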

Additional observations from a re-analysis of the deposited data

How the results depend on the processing

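Of the values recomputed under other settings, 94 stayed within 1.5 times the count reported or within the 95% binomial interval of the reported median, and 14 did not. With a window of 2 kb, 1 gene had H3K4me3 in fl alone and 1 had H3K9ac in fl. With peaks counted anywhere in the span and 1 kb around it, H3K9ac was at 4 genes in cKO and 3 in fl, and DEK at 6 in any library and 2 in at least 2. In a setting chosen after seeing the data, the same count without DEK replicate 3 gave 3 and 0. With a −log10 q of at least 5, H3K9ac in cKO and DEK in any library were at 0 genes. With lists of equal length, H3K27ac was in cKO alone at 6 genes and in fl alone at 1, and H3K9ac in cKO at 0. Leaving out DEK replicates one at a time gave 0 to 1 genes with DEK, and 0 without replicate 1. Ranked by fold, the median H3K4me3 rank in fl was 30.2%. Apart from the list lengths and thresholds themselves, the cause was not tested. No paired analysis was possible because each genotype and mark has 1 library, and replicate numbers exist for DEK in fl only. Peak lists hold no read depth, so a weak peak missing from 1 list cannot be told apart from a shallower library.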
